A study of Mus musculus with 4 samples.

Results

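The miR-669 and miR-297 names on a mouse miRNA array were followed after knockdown of Lin28a in embryonic stem cells. They are all names in the probe annotation that start with mmu-miR-669 or mmu-miR-297 followed by a letter. The rule gives 7 of 577 names on the array: miR-669a, miR-669b and miR-669c, the 5p strands miR-297a, miR-297b-5p and miR-297c, and miR-297b-3p. Together they have 19 of 1712 probes. The cells were A3-1, a cultured mouse embryonic stem cell line kept with serum and LIF, a cytokine that holds such cells undifferentiated. All received an siRNA for 48 h, either against GFP (siGFP, the control) or against Lin28a (siLin28a), and each group had 2 replicates of 1 single-colour array each. No label says that the replicates were separate cultures, and the spread behind every p-value is that of these samples and could be technical.

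A miRNA is cut from a hairpin in a longer transcript, first by Drosha in the nucleus and then by Dicer in the cytoplasm, and the seed (bases 2 to 8 of the mature strand) sets most of its target pairing. The miR-669, miR-297, miR-466 and miR-467 families make up a large rodent cluster of repeated hairpins inside an intron of Sfmbt2, an imprinted Polycomb-group gene that is active from the paternal copy in extraembryonic tissue. The cluster is known for its role in the placenta, and also gives mature miRNAs in embryonic stem cells. LIN28A, the protein encoded by the gene that siLin28a targets, binds the loop of let-7 precursors and blocks their processing. The question of the comparison is which miRNAs depend on it.

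Of the 7 names, 0 matched a mature sequence in the RefSeq table used. To show what these repeats look like, the sequences of 2 relatives are given from RefSeq (GRCm38.p6). They lie outside the cluster, and no probe of the 7 names is annotated to chromosome 3 or 7. The first is the mature strand of miR-669n, at chr3:115979905-115979924 on the plus strand, with its seed in capitals. The second is the hairpin of Mir297-1, a gene also listed as Mir297a-1, at chr7:10958437-10958512 on the minus strand, where capitals mark every run of UGUG or longer UG repeats.
miR-669n: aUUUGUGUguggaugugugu
Mir297-1 hairpin: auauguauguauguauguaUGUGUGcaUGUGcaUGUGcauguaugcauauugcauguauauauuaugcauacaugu
The motif UGUG, searched on the RNA strand with overlaps counted, occurs 5 times in mature miR-669n and 4 times in the Mir297-1 hairpin. Of 100 mature RefSeq miRNAs of 20 bases, 10 hold it, as do 26.7% of 15 hairpins of 76 bases. The seed of miR-669n was found in 1 of 1738 mature sequences, its own. The siRNA against Lin28a, as the labels give it without its dT overhangs, is shown because it is the agent of the comparison, with bases 2 to 8 of each strand in capitals. Which strand acts as the guide is not stated.
siLin28a first strand: gGGAGGAAgaggaagagau
siLin28a second strand: aUCUCUUCcucuuccuccc
The strands pair over all 19 bases.

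In the probe annotation, which uses build mm9, 6 of the 7 names have their targets on chromosome 2. From low to high coordinate these are miR-669b at 10389446 to 10389462, miR-669a at 10396089 to 10396108, miR-297c at 10430654 to 10430674, miR-297b-3p at 10430695 to 10430713, miR-669c at 10430950 to 10430967 and miR-297b-5p at 10433316 to 10433334. The target of miR-297a is given on chromosome 10, at 42855314 to 42855332. The files give 1 position per probe, and no exon and intron annotation of mm9 was used here. RefSeq genes of GRCm38.p6 place 72 miRNA genes within the span of Sfmbt2, of which 29 are named Mir669, 5 Mir297, 23 Mir466 and 14 Mir467, with 1 under another symbol. Of the Mir669 genes, 12 are copies named Mir669a, while Mir669b and Mir669c have 1 each. For Mir297 there are 3 copies of Mir297a and 1 each of Mir297b and Mir297c. A further 2 genes named Mir669 or Mir297 lie outside the span. A signal for miR-669a or miR-297a can therefore come from several hairpins, and the array cannot tell these apart. For miR-297a they may include hairpins outside the cluster, such as Mir297-1 by its other name Mir297a-1.

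Some probes also report more than 1 name. Both miR-669b probes are annotated for miR-297a as well, and 1 of 3 miR-297a probes is annotated for miR-669b. All 4 probes of miR-297b-3p are also listed for the opposite strands of miR-297a and miR-297c. The values of miR-669b, miR-297a and miR-297b-3p are thus not separate measurements of single RNAs.

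The arrays lay on 1 slide, where positions 1 and 2 held the first replicates and positions 3 and 4 the second, so that the replicate number follows the slide position. All 9 markers of the embryonic stem cell cluster miR-290 to miR-295 were detected on all 4 arrays, and 0 of 3 muscle markers were. The fibroblast list had 1 of 4 markers on the array detected throughout, the neural list 2 of 3 and the blood list 1 of 4. The summed total gene signal of the fibroblast list, unscaled, was 25.5 to 27.9 with siGFP and 38.0 to 51.3 with siLin28a, and it was also higher after division by the scaling percentile (0.113 to 0.127 against 0.153 to 0.194). Within that list miR-143 read 20.3 and 19.1 with siGFP and 35.1 and 37.0 with siLin28a, unscaled. miR-214 read 7.27 and 10.7 against 5.36 and 13.2, and miR-145 and miR-199a-5p were detected on no array. The unscaled sum of the embryonic stem cell list was also higher with siLin28a (66690 to 69153, against 60053 to 60338). Ranges of the groups overlapped for the neural list (184 to 221 with siGFP, 206 to 284 with siLin28a) and the blood list (69.5 to 104 and 77.3 to 136). The part of these markers in the results was not tested. The share of spots well above background ran from 32.5% to 38.8%. Values are log2 signals scaled within each array to the 75th percentile of probes well above background on all arrays, with a floor at -3.40, and they are compared only for the same name between arrays. Of the 7 names, 6 passed the filter on dim probes and were tested among 231 miRNAs. Except for miR-297b-3p, each was well above background on all 4 arrays.

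All 6 tested names had a higher mean with siLin28a, by 0.22 to 0.76 on the log2 scale, and 0 of 6 passed limma's test at an adjusted p of 0.05 (0 of 6 also at an unadjusted p of 0.05, where 24.7% of all tested miRNAs passed). Over all 231 miRNAs, 2 passed (0.866%), which were let-7a at 1.12 (SE 0.07) and let-7f at 1.17 (SE 0.07), each with a limma adjusted p = 0.0210 and with siGFP values at the floor. The median difference of the 6 was 0.68, against 0 over all tested miRNAs, and with the normexp background correction it was 0.20, against -0.05. In such bulk RNA, a change in the number of cells that hold a miRNA and a change in its amount per cell cannot be told apart. For 5 of the 6, the arrays of the groups overlapped, with replicate 1 well above replicate 2 in both groups. Only miR-669c had both siLin28a arrays above both siGFP arrays, a pattern seen in 30.7% of all tested miRNAs. With no filter on dim probes, limma called 4 of 7 (miR-297a, miR-297c, miR-669a and miR-669b) at the same differences as with it, beside 48 of 577 names over the whole array (8.32%). The prior degrees of freedom were infinite in that fit, against 1.64 with the filter.

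**Figure D1:**
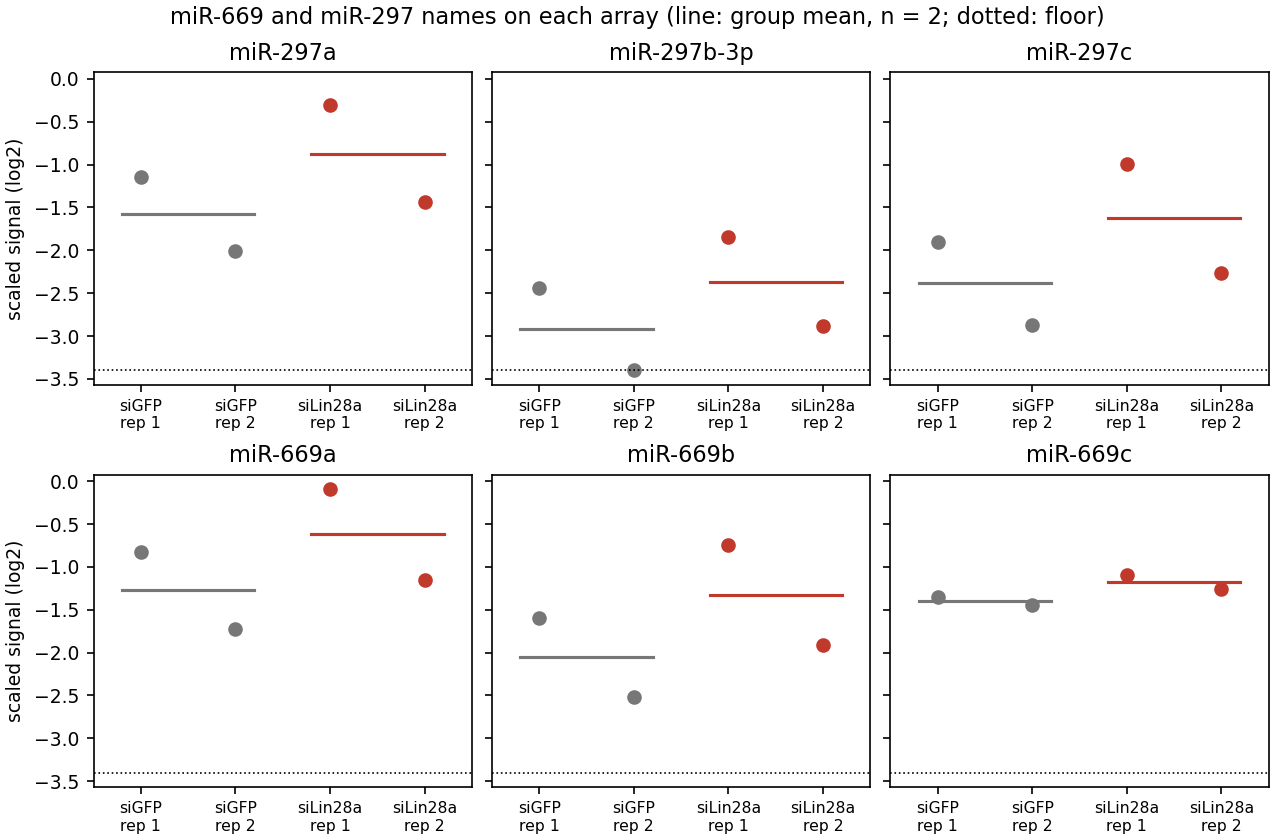
Scaled log2 signal (y axis) of the 6 tested names on each of the 4 arrays (x axis), with grey points for siGFP and red points for siLin28a. Horizontal lines are group means (n = 2) and the dotted line is the floor at -3.40. In all 6 panels replicate 1 is the higher point of each group, and in 5 of them siLin28a replicate 2 lies below siGFP replicate 1. In the miR-669c panel the points of a group lie close together.

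Among the miR-669 names, miR-669a is known as a repressor of the muscle regulator MyoD. The scaled signal was -0.82 on siGFP replicate 1, -1.73 on siGFP replicate 2, -0.09 on siLin28a replicate 1 and -1.16 on siLin28a replicate 2. Replicate 1 was the higher array in both groups, and the siGFP replicate 1 array exceeded siLin28a replicate 2. The difference between groups was 0.65 (SE 0.53, 95% interval -0.87 to 2.17, limma adjusted p = 0.440, n = 2 per group). Its 2 probes gave 0.64 and 0.66.

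For miR-669b the arrays read -1.59 and -2.51 with siGFP and -0.75 and -1.91 with siLin28a. The order of the 4 arrays was that of miR-669a. The groups differed by 0.72 (SE 0.56, 95% interval -0.90 to 2.35, limma adjusted p = 0.423), and the values of its probes were 0.69 and 0.76. Both probes are also annotated for miR-297a, which gave the same order of arrays.

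miR-669c, known for a rise in the ageing mouse liver, stood apart from the other names. It read -1.35 and -1.44 with siGFP and -1.10 and -1.26 with siLin28a. Both siLin28a arrays were above both siGFP arrays, and the replicates of a group lay within 0.16 of each other. The difference of 0.22 (SE 0.12, 95% interval -0.13 to 0.56, limma adjusted p = 0.322) was the smallest of the 6 and had the smallest standard error. Its direction was not kept with the normexp background correction, where it was -0.02. The SD between replicates was 0.07 with siGFP and 0.11 with siLin28a, close to the medians over all tested miRNAs of 0.10 and 0.10. The probes of miR-669c gave group differences of 0.17 and 0.26. That miR-669c differs from the other names was not tested.

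Of the 5p strands of the miR-297 hairpins, miR-297a and miR-297c were tested, and their arrays stood in the order of miR-669a. miR-297a stood at -1.14 and -2.003 under siGFP and at -0.31 and -1.43 under siLin28a. Its difference was 0.70 (SE 0.53, 95% interval -0.84 to 2.24, limma adjusted p = 0.417). The 3 probes gave between 0.66 and 0.76. Restricting the fit to probes annotated for a single name, an alternative added after the data were seen, left 2 of them and a median of 0.66 over the 4 names that kept a probe.

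miR-297c spread from -1.90 to -2.87 between the siGFP replicates and from -0.99 to -2.26 between those of siLin28a. Its SD was 0.68 with siGFP and 0.90 with siLin28a, and the latter was the largest of the 6 in that group. With siGFP miR-297b-3p also had an SD of 0.68, narrowed by a replicate 2 value raised to the floor. The order of these 2 names with siGFP is therefore open. The group difference of 0.76 was also the largest of the 6 (SE 0.60, 95% interval -0.98 to 2.50, limma adjusted p = 0.433). Both probes, with targets of 20 and 21 bases, gave 0.75 and 0.76.

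miR-297b-3p is by its name the 3p arm of the miR-297b hairpin. Its annotated target, at 10430695 to 10430713, lies closer to that of miR-297c (10430654 to 10430674) than to that of miR-297b-5p (10433316 to 10433334). The name was measured by 1 of its 4 probes. That probe was well above background on both siLin28a arrays and on siGFP replicate 1, and its siGFP replicate 2 signal was set to the floor. On the log2 scale siGFP gave -2.44 and -3.40, and siLin28a gave -1.84 and -2.88. The difference of 0.55 (SE 0.53, 95% interval -0.98 to 2.08, limma adjusted p = 0.510) depended on how dim values were treated. It was 1.15 with the total gene signal, 1.15 with the authors' deposited table, 0.14 with no filter on dim probes and 0.019 with normexp. The name entered the test through the siLin28a group only, so a higher value there was favoured. The floor acted the other way, since it raised the scaled siGFP replicate 2 value from 0.0778 to 0.0948.

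Before scaling, the kept miR-297b-3p probe, with a target of 19 bases, averaged 41.6 and 17.1 over its spots under siGFP, against 69.0 and 35.9 under siLin28a. The probe with a target of 18 bases read 7.60 and 1.097 against 17.5 and 7.91. No array had it well above background. Both shorter probes, with targets of 16 and 17 bases, read below 0 on all 4 arrays.

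miR-297b-5p was the only name not tested, since its 4 probes stayed below that mark on every array. Its total gene signal, which sums its probes, was -0.89 and -1.77 under siGFP, then 6.31 and 1.197 under siLin28a. The errors that Feature Extraction gives for these values were 3.01 and 2.81, and 3.05 and 2.40. Feature Extraction called it detected on 0 of 4 arrays, so these values have no order. Its difference was 0 with no filter on dim probes, where every value lay at the floor.

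**Figure D2:**
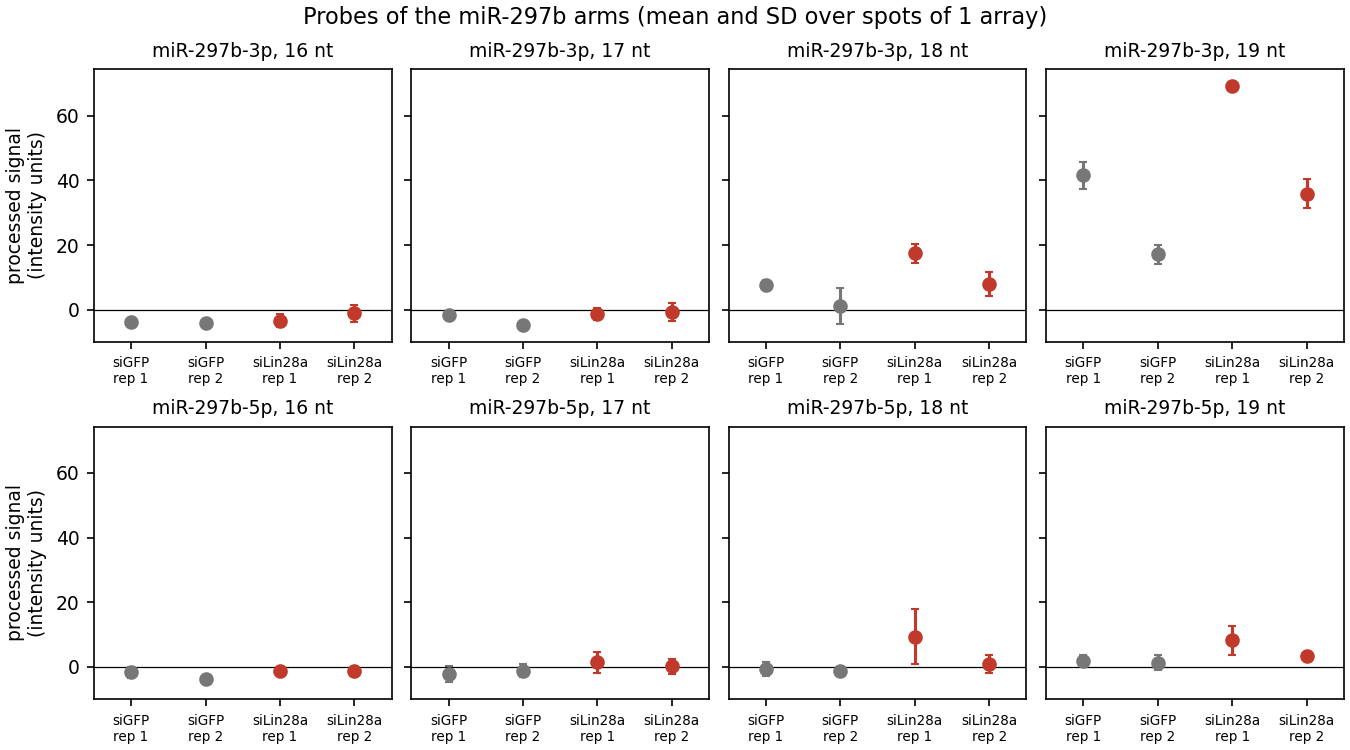
Mean processed signal in intensity units (y axis) of the 4 probes of miR-297b-3p (upper row) and of miR-297b-5p (lower row) on each array (x axis), with panels titled by the length of the probe target. Grey is siGFP, red is siLin28a, and bars are the SD over the spots of 1 array. The miR-297b-3p probe with a target of 19 bases reads 17.1 to 69.0, while the miR-297b-5p probes read from -3.74 to 9.39.

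Setting arrays of the same replicate number side by side gave a uniform picture. siLin28a exceeded siGFP in both pairs for 6 of 6 tested names, and for 5 of 5 without miR-297b-3p, against 41.6% of all tested miRNAs. For replicate 1 the differences were 0.73 for miR-669a, 0.85 for miR-669b, 0.25 for miR-669c, 0.83 for miR-297a, 0.91 for miR-297c and 0.59 for miR-297b-3p. Those of replicate 2 were 0.57, 0.60, 0.18, 0.57, 0.60 and 0.52 in the same order. The last of these was narrowed by the floor on siGFP replicate 2. As folds, miR-297c was 1.88 times as bright with siLin28a for replicate 1 and 1.52 times for replicate 2, while miR-669c was 1.19 and 1.14 times as bright. Without miR-669c the names ran from 0.59 to 0.91 in the first pair and from 0.52 to 0.60 in the second. In both pairs, 5 of 6 names differed by over 0.5, a size chosen after the values were seen, as did 9.09% of all tested miRNAs.

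The difference between replicates of a group was larger still. Replicate 1 exceeded replicate 2 in both groups for 6 of 6 names, against 21.6% of all tested miRNAs. With siGFP it did so by 0.91 for miR-669a, 0.92 for miR-669b, 0.86 for miR-297a, 0.96 for miR-297c and 0.96 for miR-297b-3p, but by 0.09 for miR-669c. With siLin28a the same names gave 1.07, 1.17, 1.12, 1.27 and 1.04, and miR-669c gave 0.16. The siGFP value of miR-297b-3p was narrowed by the floor on replicate 2. The miR-669c probes did not share the order with siGFP. The probe with a target of 17 bases read -1.34 on replicate 1 and -1.31 on replicate 2, and that of 18 bases -1.35 and -1.57. For all 5 names other than miR-669c the replicate difference was larger than the difference between groups, in each group. miR-297c was 1.95 times as bright on replicate 1 as on replicate 2 with siGFP and 2.42 times with siLin28a.

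siLin28a replicate 2 lay below siGFP replicate 1 for the same 5 names, by 0.29 to 0.45. miR-669c was 0.09 higher there. In the opposite combination, siLin28a replicate 1 against siGFP replicate 2, the 5 names were 1.55 to 1.88 higher and miR-669c 0.34 higher. The lowest of these 5 values, that of miR-297b-3p, was narrowed by the floor. Each array thus weighed heavily on the result. The median over the 6 names was 1.12 without siGFP replicate 1, 0.23 without siGFP replicate 2, 0.13 without siLin28a replicate 1 and 1.22 without siLin28a replicate 2. In these fits a group with 1 array is assumed to vary like the other.

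**Figure D3:**
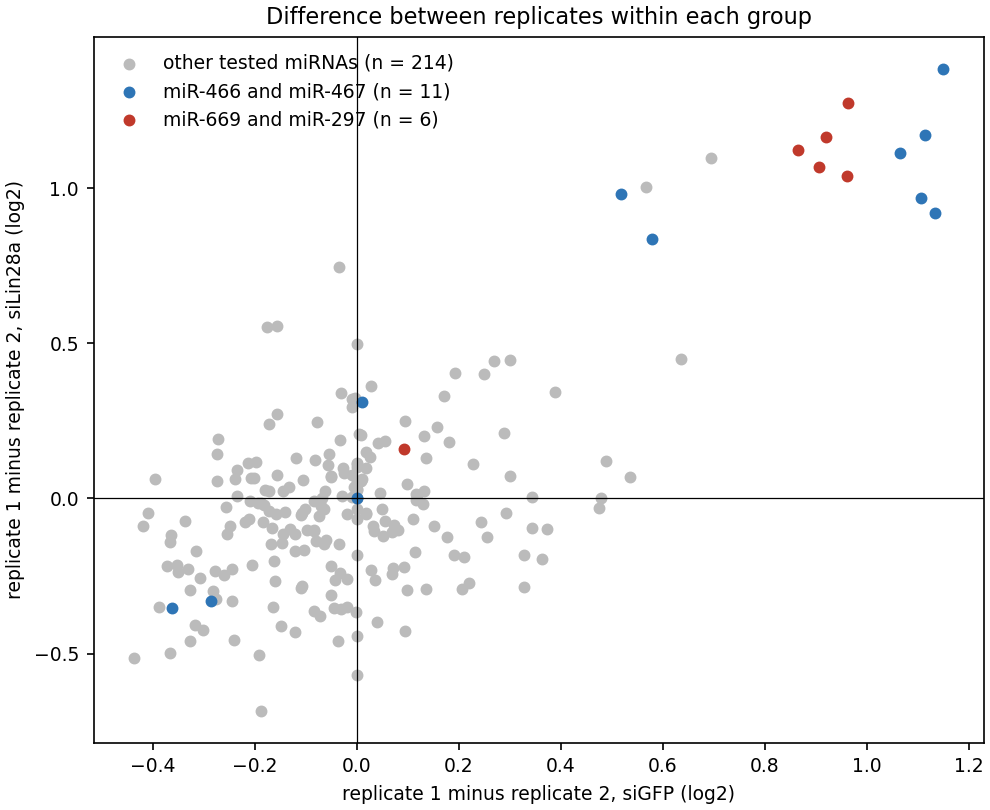
Replicate 1 minus replicate 2 of each tested miRNA in scaled log2 signal, with siGFP on the x axis and siLin28a on the y axis. Red points are the 6 miR-669 and miR-297 names, blue points 11 names of miR-466 and miR-467, and grey points 214 other miRNAs. Of the red points, 5 lie together at the upper right, from 0.86 to 0.96 on the x axis and from 1.04 to 1.27 on the y axis, and miR-669c lies near the origin.

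Over all tested miRNAs, 14 of 231 (6.06%) had replicate 1 higher by over 0.5 in both groups. These were 5 of the 6 names (miR-669c being the exception), 7 of the 11 tested miR-466 and miR-467 names, and 2 others. The median size of the replicate difference over all tested miRNAs was 0.14 with siGFP and 0.15 with siLin28a. Slide position moves with the replicate number, and its part in the result was not tested.

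Over 12 kept probes on 4 arrays, the coefficient of variation between spots of a probe had a median of 6.94% and ran from 2.12% to 22.3%. For miR-669c it was 5.85% to 8.58%, while its replicates differed 1.07-fold with siGFP and 1.12-fold with siLin28a. This spread within an array is technical and leaves out that between samples. Total gene signals, which are not scaled between arrays, gave nearly the same order. miR-669a had 177 and 96.8 with siGFP and 333 and 172 with siLin28a, with errors of 13.3, 7.93, 24.0 and 12.7. miR-297a had 142 and 80.2 against 285 and 142, so that siGFP replicate 1 and siLin28a replicate 2 were nearly equal, with a ratio of 1.00. For miR-669c the signals of 123 and 119 with siGFP lay below the 165 and 161 with siLin28a.

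The neighbouring families in the intron were set beside these names. Of 18 miR-466 and miR-467 names on the array 11 were tested, and 0 of 11 passed limma at an adjusted p of 0.05 (0 of 11 also unadjusted). Their median difference was 0.65. The 5 miR-467 names ranged from 0.66 to 0.92, beside 0.22 to 0.76 for the miR-669 and miR-297 names. The 6 miR-466 names had a median of 0.12 and ran from -0.13 for miR-466f-3p to 0.65 for miR-466h. Among them, miR-466f-5p lay at the floor on every array, so that its difference was 0 and it could not be called. miR-466f-3p and miR-466g were lower with siLin28a in both pairs and higher on replicate 2 in both groups. Both siLin28a arrays lay above both siGFP arrays for 2 of the 11, as in 30.7% of all tested miRNAs. These were miR-467c and miR-466c-5p. The latter differed between groups by 0.24, close to miR-669c, with replicate differences of 0.01 with siGFP and 0.31 with siLin28a. No test of a difference between families was made.

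The tested miRNAs nearest in pattern were taken by the root mean square distance of their centred log2 values over the 4 arrays from the mean of the 6 names. The nearest 5 were miR-466h at 0.09, miR-466e-3p at 0.12, miR-467c at 0.14, miR-467a* at 0.15 and miR-467b at 0.17. For miR-466h and miR-466e-3p the siGFP replicate 2 value was at the floor, as for miR-297b-3p. All 5 have probe targets on chromosome 2 within the cluster and were measured on the same arrays. By the same measure, miR-669c lay at 0.42, farther than any of these, while miR-669a lay at 0.06 and miR-297c at 0.15. The neighbour miR-466c-5p lay at 0.40. The 6 names enter the mean themselves, which favours small distances for them. miR-669c has its probe target between those of miR-297b-3p and miR-297b-5p.

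**Figure D4:**
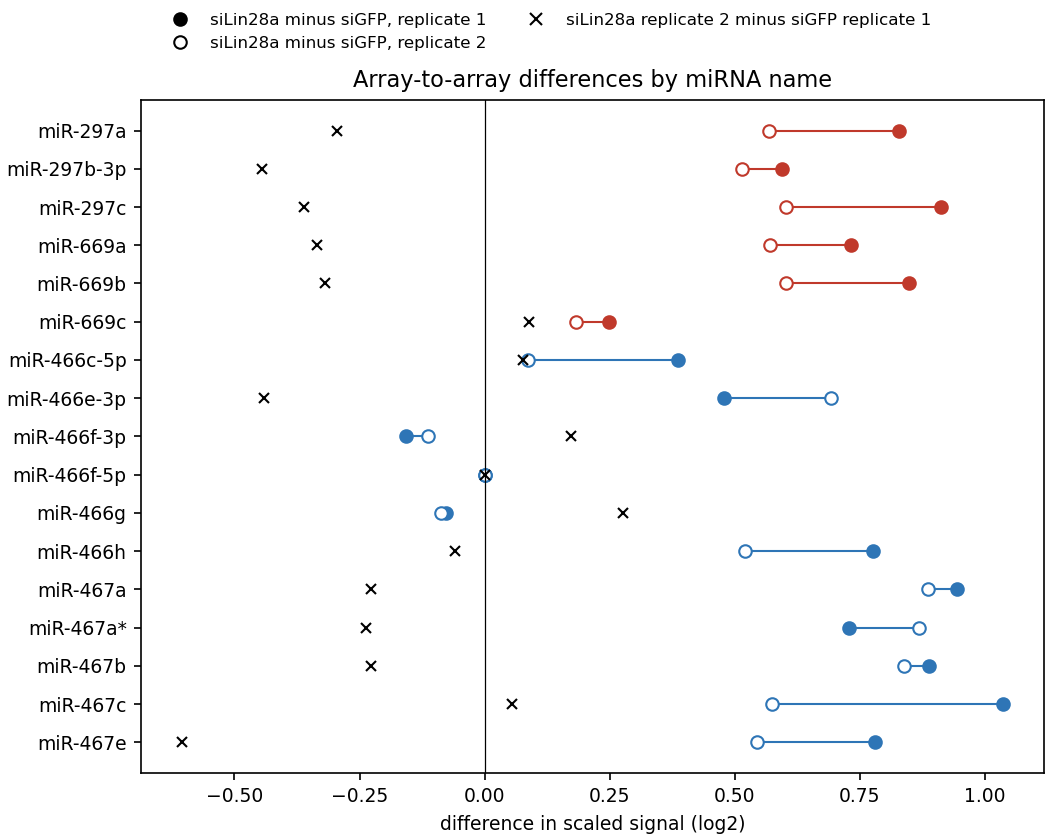
Differences in scaled log2 signal between single arrays (x axis) for each tested miR-669 and miR-297 name (red) and each tested miR-466 and miR-467 name (blue). Filled circles are siLin28a minus siGFP for replicate 1, open circles the same for replicate 2, and crosses siLin28a replicate 2 minus siGFP replicate 1. All red circles lie above 0, while the crosses of 5 red names lie between -0.45 and -0.29.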

How the data were processed

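RNA of 4 samples (100 ng each, per the labels) was labelled with Cy3 and hybridised to Agilent miRNA arrays of design 019119. The deposited scanner files give linear intensity, made with Agilent Feature Extraction 9.5.1.1 per the file headers (9.5.3.1 per the submitters' processing notes). The processed intensity is background-subtracted. The authors' deposited table holds the total gene signal in the same intensity unit, with values at or below 0 as 0.

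Spots flagged as outliers were left out (3.21% to 4.32% of 11540), and no spot was saturated. Spots of a probe were averaged. A probe counted as well above background when at least 50% of its spots were. Arrays were divided by the 75th percentile over 425 probes well above background on all arrays, floored at 0.0948 and taken to log2. Kept probes (477) passed that mark on every array of siGFP or of siLin28a and were averaged per name. siLin28a was tested against siGFP by limma 3.58.1 (R 4.3.3; eBayes with a trend, 2 residual degrees of freedom; two-sided), and p-values were adjusted by Benjamini-Hochberg across 231 miRNAs. Steps were tested on simulated data. All tested members are named, with the 5 nearest other miRNAs. The members and lists were chosen with earlier results of these data known. Group and replicate number were read from each title. Alternatives concerned scaling, background, filter, probe summary, moderation, replicate block and leaving out arrays.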

Additional observations from a re-analysis of the deposited data

How the results depend on the processing

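Of 93 recomputed differences of single names, 88 kept their direction and their side of the threshold, 4 passed the threshold with no filter on dim probes, and 1 reversed, that of miR-669c at -0.020 with normexp. The median over the tested names, 0.68 as reported, was 0.50 with scaling over all probes, 0.88 with no scaling and 0.20 with normexp, whose offset of 50 narrows dim differences. The first 2 of these settings moved the median of all tested miRNAs to -0.16 and 0.19, and relative to it the names stood at 0.66 and 0.69. With 1 array left out the median ran from 0.13 to 1.22. The number of names called was 4 with no filter and 0 in the other alternatives. Over all tested miRNAs, 2 were called as reported, 0 with scaling over all probes, 0 with normexp, 0 when well above background on all 4 arrays was required, 48 with no filter, 8 with the total gene signal, 8 with the authors' deposited table, and 0 to 11 with 1 array left out. With the replicate number as a block, 0 names and 2 of all tested miRNAs were called, and 5 of 6 names had an unadjusted p below 0.05, against 0 without the block, as did 80 of 231 miRNAs, against 57. The titles give shared numbers for 2 pairs and no shared batch. Replicate differences in the 2 groups correlated across 231 miRNAs, which are not independent, at r = 0.71 (0.38 over 214 without the 4 families). Probes listed for 1 name left no value for miR-669b or miR-297b-3p. The number of arrays limits every value.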

Other observations

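The 2 miRNAs outside the 4 families of the Sfmbt2 intron with replicate 1 higher by over 0.5 on the log2 scale in both groups were miR-135b and miR-142-3p, chosen after their values were seen. miR-135b exceeded replicate 2 by 0.69 with siGFP and 1.096 with siLin28a, and it differed between groups by -0.83 (SE 0.49, limma adjusted p = 0.345), the opposite direction to the miR-669 and miR-297 names. miR-142-3p, a blood marker, exceeded it by 0.57 and 1.00, with a group difference of -0.09.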
